A study of Mus musculus with 4 samples.

Results

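The genes described here encode the proteins of the cytosolic ribosome. They are the 84 entries of the expression table whose symbols follow the Rpl and Rps naming pattern, with Rplp0, Rplp1, Rplp2 and Rpsa, out of 26809 entries kept. Of these, 52 belong to the large subunit and 32 to the small subunit, and 8 have names ending in l or l1, the paralogs of another member. The pattern itself reads symbols and no values. A group of 82 members reached at least 1 TPM, a level of reads per transcript length and library total, in at least 1 library. Rpl10l, a testis copy of Rpl10, and Rpl3l, a muscle form of Rpl3, did not.

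Cytosolic ribosomal proteins are assembled with ribosomal RNA in the nucleolus and are needed in near-equal numbers. Their mRNAs are among the most abundant of growing cells. Many begin with a tract of C and T called a 5′ terminal oligopyrimidine tract, through which mTOR and the RNA-binding protein Larp1 control their translation as a group.

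RNA was sequenced from C57BL/6 mouse embryonic fibroblasts on day 5 of reprogramming by the Sendai virus vector SeVdp(KOSMaB), and every group received that vector and blasticidin S at 2 µg/mL. The cells also carried a transgene, either Osr2, a zinc-finger transcription factor of the odd-skipped family, or Kusabira Orange (hKO), the control. They were grown with or without SB431542 at 10 µM. This compound blocks the kinase of type I receptors for TGF-β and activin. The 4 groups are Osr2 cells with SB431542 (Osr2+SB), Osr2 cells without it (Osr2-SB), control cells with it (control+SB) and control cells without it (control-SB). Each group is 1 library of poly(A) RNA, so no difference below has a replicate check and none was tested. The RNA is that of whole cultures early in reprogramming, and in bulk RNA a smaller share of cells that express a gene cannot be told apart from less RNA per cell.

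The starts of 8 members are shown because they span the range of the largest contrast described below, that of Osr2+SB against control+SB. They are the 4 lowest and the 4 highest members in that contrast among the 63 members with a RefSeq transcript start. Each window holds 10 bases before the annotated start and 20 from it, 5′ to 3′ on the coding strand of GRCm38.p6, from RefSeq. Capitals mark the longest unbroken run of C and T where it has at least 5 bases. The 4 lowest were Rpl39l (chr16:10170218-10170247, plus strand), Rps4x (chrX:102189372-102189401, minus strand), Rpl24 (chr16:55966265-55966294, plus strand) and Rpl13a (chr7:45128726-45128755, minus strand).
Rpl39l: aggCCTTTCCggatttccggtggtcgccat
Rps4x: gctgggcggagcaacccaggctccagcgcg
Rpl24: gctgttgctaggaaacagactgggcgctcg
Rpl13a: cctgcgacaagaCCTCCTCCTTTCCCaggc
The 4 highest were Rpsa (chr9:120127756-120127785, plus strand), Rps10 (chr17:27635225-27635254, minus strand), Rplp2 (chr7:141447641-141447670, plus strand) and Rps3 (chr7:99483690-99483719, minus strand).
Rpsa: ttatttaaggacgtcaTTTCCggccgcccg
Rps10: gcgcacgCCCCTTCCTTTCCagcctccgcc
Rplp2: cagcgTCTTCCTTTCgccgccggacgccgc
Rps3: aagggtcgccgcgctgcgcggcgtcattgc
Long and short runs stood at both ends of the range. The motif searched was any run of at least 8 bases of C or T in the 50 bases centred on the start, on the coding strand. It was present in 33 of the 63 members (52.4%), against 22% of 18505 other genes of the table. On the other strand it was present in 5 members (7.94%), against 23.4% of the other genes. By subunit it was found in 55% of large-subunit and 47.8% of small-subunit members. A start that RefSeq places a few bases off moves the window, so a window without a run says only that these letters are not there.

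Reads could be recovered from the TPM values as whole numbers, which gave 1652197 reads in Osr2+SB, 14434439 in Osr2-SB, 13352680 in control+SB and 18274782 in control-SB. The Osr2+SB library stood apart. Mitochondrially encoded genes held 15.1% of its reads, against 2.42% in Osr2-SB, 0.694% in control+SB and 1.74% in control-SB, and 39 of the 84 members had under 100 reads in it. No entry had more reads in a treated column than in the untreated column of the same cells, so the untreated columns may hold the treated reads, which only numbers of reads cannot settle. The 4 comparisons are also given after read subtraction, in which the untreated column is reduced by the treated reads. On TPM as deposited, Osr2 itself stood at 13.7 in Osr2+SB and 59.1 in Osr2-SB, against 0.764 in control+SB and 0.89 in control-SB. Reads of the transgene and of the cells' own gene cannot be told apart. The 10 fibroblast markers summed to 405 deposited TPM in Osr2+SB, 7922 in Osr2-SB, 635 in control+SB and 1002 in control-SB. Deposited columns do not share a scale. Their scale factors against control-SB, described below, were 0.121 in Osr2+SB, 0.575 in Osr2-SB and 1.38 in control+SB. How the libraries rank in Osr2 and in these markers therefore depends on the scale. Epithelial, macrophage, endothelial and erythroid marker sums were at most 19.1 TPM in every library, and 5 pluripotency markers summed to 0, 0.413, 0.185 and 0.493 TPM in the same order, with each of them under 1 TPM. Their part in the results below was not tested.

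Levels of the ribosomal protein genes were lowest in Osr2+SB and highest in control+SB. The members' TPM summed to 2708.8 in Osr2+SB, 15979 in Osr2-SB, 36884 in control+SB and 26199 in control-SB. The TPM of all listed genes, however, added up to 96037.9, 270168, 452145 and 345864 in the same libraries, so the deposited values do not share a total. As a share of the listed TPM, the members held 2.82% in Osr2+SB and 5.91% in Osr2-SB, against 8.16% in control+SB and 7.58% in control-SB. As a share of reads they held 1.94% in Osr2+SB (exact 95% binomial interval 1.92 to 1.96), 2.61% in Osr2-SB (2.6 to 2.62), 3.69% in control+SB (3.68 to 3.7) and 3.55% in control-SB (3.54 to 3.55). Intervals cover counting error only, since the reads carry no molecular identifiers. The order of the 4 libraries was the same for both shares, with both Osr2 libraries below both control libraries. A share depends on all other genes of the library. Relative to the median gene, as described below, the median member differed by -0.01 between Osr2-SB and control-SB.

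The large-subunit members summed to 1.44 times the TPM of the small-subunit members in Osr2+SB, 1.61 times in Osr2-SB, 1.64 times in control+SB and 1.62 times in control-SB. By summed TPM, the balance of the subunits thus varied little among 3 libraries, and the lowest ratio was that of Osr2+SB. The median large-subunit gene had 15.8 TPM in Osr2+SB, 118 in Osr2-SB, 287 in control+SB and 188 in control-SB. The median small-subunit gene had 12.8 TPM in Osr2+SB, 135 in Osr2-SB, 321 in control+SB and 235 in control-SB. The medians did not follow the sums. The large-subunit median was above the small-subunit median in Osr2+SB and below it in the other libraries.

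**Figure D1:**
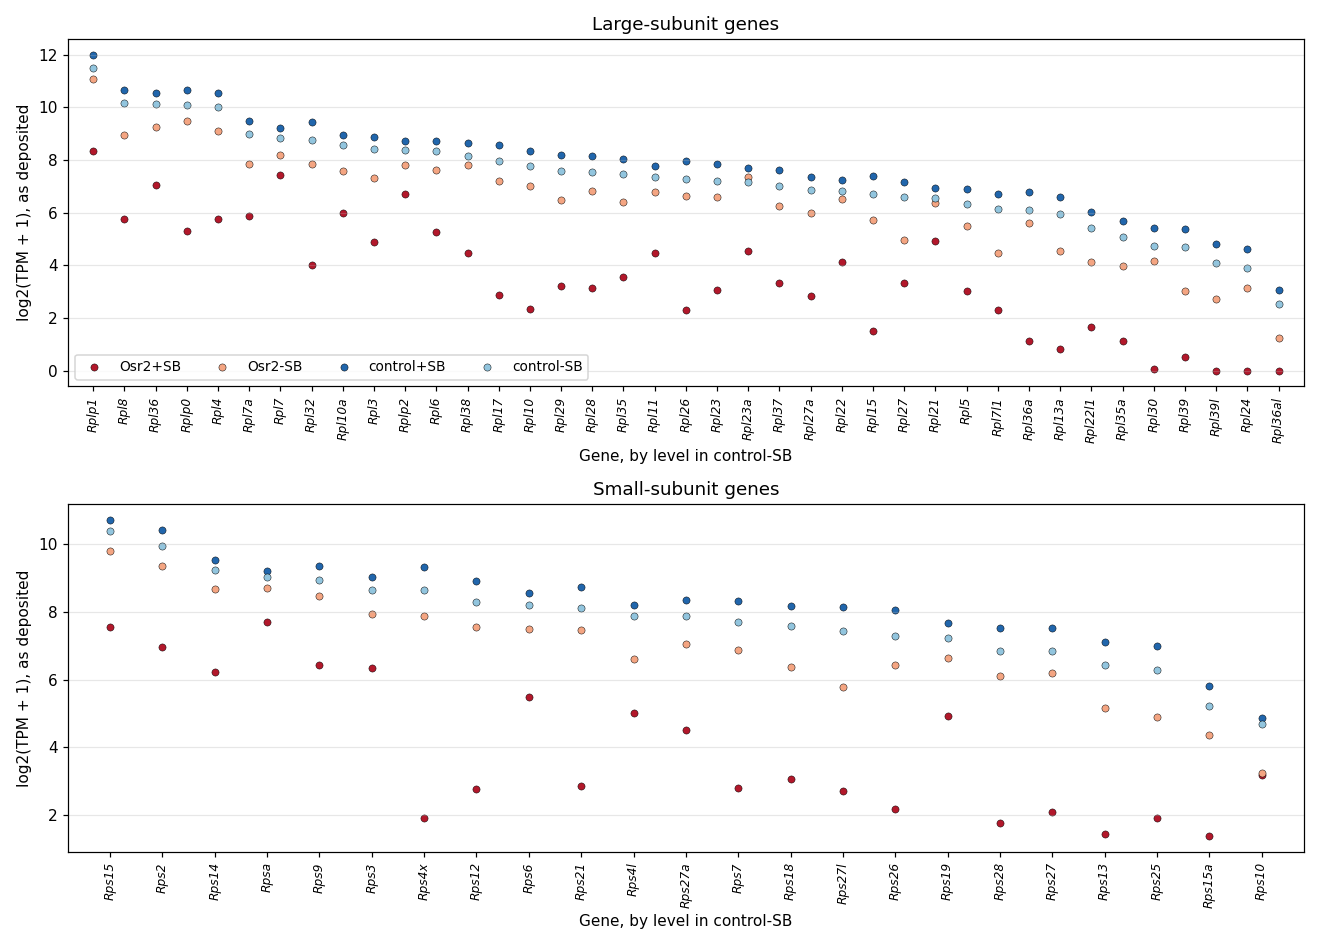
Level of the measured ribosomal protein genes that are reported by name, as log2(TPM + 1), as deposited, with large-subunit genes above and small-subunit genes below, ordered by their level in control-SB. Each point is 1 library. Points of Osr2-SB, control+SB and control-SB run in parallel, while those of Osr2+SB (dark red) scatter widely, and Rpl24, Rpl39l and Rpl36al stand at 0 in it.

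The most abundant member was Rplp1, an acidic protein of the large-subunit stalk that recruits elongation factors. It reached 326 TPM in Osr2+SB and 2157 in Osr2-SB, against 4103 in control+SB and 2923 in control-SB. Rps15, a small-subunit protein near the decoding site, followed with 187 TPM in Osr2+SB, 890.4 in Osr2-SB, 1678 in control+SB and 1344 in control-SB. These were the leading gene of each subunit in mean TPM, and in both the Osr2+SB value was the lowest of the 4. Next among large-subunit members came Rplp0, Rpl8, Rpl36 and Rpl4, at 38 to 130.2 TPM in Osr2+SB, 499 to 710.1 in Osr2-SB, 1475 to 1637 in control+SB and 1029 to 1154 in control-SB. Among small-subunit members came Rps2, Rps14 and Rpsa, at 74 to 208 TPM in Osr2+SB, 411 to 648 in Osr2-SB, 586 to 1353 in control+SB and 517 to 993 in control-SB. The 10 highest members of each library made up 55% of the members' TPM in Osr2+SB, 45.6% in Osr2-SB, 42.7% in control+SB and 43.5% in control-SB.

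The spread among members differed between the libraries more than the subunit ratio did. On the scale relative to the median gene, the SD of the members' log2 levels was 2.44 in Osr2+SB, 1.75 in Osr2-SB, 1.52 in control+SB and 1.57 in control-SB. The same order held within the large subunit (2.69, 1.93, 1.68 and 1.74) and within the small subunit (1.99, 1.42, 1.21 and 1.25). On deposited TPM the SDs of the members were 1.97, 1.73, 1.52 and 1.57 in the same libraries. The size of the excess in Osr2+SB thus depends on the scale to which 1 is added. In Osr2+SB 3 measured members had 0 reads. Ranks of levels are described across 80 members with at least 100 reads in control+SB and in Osr2-SB. Those in Osr2-SB and control-SB had a Spearman's rho of 0.97, and those in Osr2+SB and control+SB had a rho of 0.76. Across 8857 other protein-coding genes under the same filter these were 0.79 and 0.68. The lower depth of Osr2+SB adds counting error to its ranks, and the part of this in the difference was not tested.

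In all comparisons below, a difference is that of log2(TPM + 1) on TPM rescaled by the median ratio of 7867 genes to control-SB, so it is relative to the median gene. A gene counts as higher or lower where this difference is at least 1 in size. Without this step the median of 13509 measured genes lay at -0.64 for Osr2-SB minus control-SB, -2.34 for Osr2+SB minus control+SB, 0.41 for control+SB minus control-SB and -1.37 for Osr2+SB minus Osr2-SB. Those medians are not the shift removed. The log2 scale factors against control-SB were -3.05 in Osr2+SB, -0.8 in Osr2-SB and 0.46 in control+SB. Directions below are relative to these factors unless given as deposited or after read subtraction.

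The first question is what Osr2 does to these genes without the inhibitor. The ribosomal protein genes stayed close to the median gene. None of 82 measured members was higher and none was lower in Osr2-SB than in control-SB by the size used, while 16.6% of all measured genes were higher and 11.4% lower. The median member difference was -0.01, against -0.02 for all measured genes, and the quartiles of the members were -0.22 and 0.18, against -0.56 and 0.63 for all measured genes. Large-subunit members had a median of -0.04 and small-subunit members one of 0.04.

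The member with the largest positive difference was Rpl23a, a protein at the exit of the peptide tunnel, at 161 TPM in Osr2-SB and 143 TPM in control-SB. Relative to the median gene this was a difference of 0.96, or 1.96-fold on TPM without a pseudocount (exact 95% counting interval 1.84 to 2.09). Next came Rpl21, Rpsa, Rpl22 and Rpl38, at differences of 0.61, 0.49, 0.47 and 0.45. Of these 5, only Rpl23a was also above control-SB on deposited TPM, by 0.17, and Rpsa lay at -0.41 after read subtraction. The lowest was Rpl39, a small protein lining the peptide tunnel, at 7.21 TPM in Osr2-SB and 24.7 TPM in control-SB, a difference of -0.92. Rps27l, Rpl7l1, Rpl27 and Rpl36al lay at -0.88, -0.87, -0.85 and -0.78, so 3 of the 5 lowest were paralogs. After read subtraction Rpl39 was at 0.2 and Rps27l at 0.31, both above control, and Rpl7l1, Rpl27 and Rpl36al stayed below it at -0.46, -0.61 and -0.26.

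On deposited TPM 21 members were lower and 0 higher in Osr2-SB, where 30.6% of all measured genes were lower and 7.78% higher. After read subtraction the member median was 0.26, against 0.06 for all measured genes. Of the members, 9 were then higher and 1 (Rps10, at -1.88) was lower, beside 17.4% and 12% of all measured genes. The member furthest up after subtraction was Rps26, a protein at the mRNA exit channel, at 1.49.

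With SB431542 in both cultures, the picture was different. Of 82 measured members, 38 (46.3%) were lower and 5 (6.1%) higher in Osr2+SB than in control+SB, beside 27.9% lower and 19.9% higher among all measured genes. The member median was -0.76, against -0.21 for all measured genes, and -0.71 when the 3 members with 0 reads were set to 3 reads. The members did not move together: their quartiles were -2.19 and 0.01, and their differences ran from -4.45 to 2.02. No measured member was lower in Osr2-SB against control-SB by the size used, beside 11.4% of all measured genes. None of these 38 could therefore be lower in both comparisons. After read subtraction the counts were again 38 lower and 5 higher, where 27.5% of all measured genes were lower and 18.7% higher. On deposited TPM all 82 members were lower and 0 higher in Osr2+SB, as were 88.1% of all measured genes, and 0.348% were higher.

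**Figure D2:**
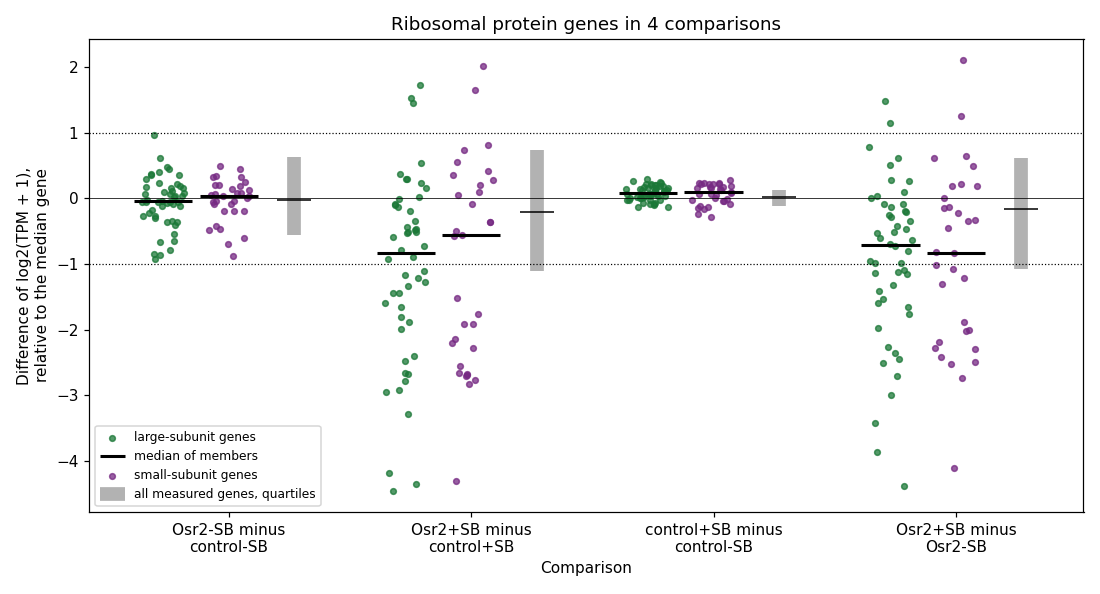
Difference of log2(TPM + 1), relative to the median gene, of each measured ribosomal protein gene in 4 comparisons, with large-subunit genes in green and small-subunit genes in purple. Thick lines are medians of the members, grey bars the quartiles and median of all 13509 measured genes, and dotted lines the size of 1 used for counting. The points stay within 1 of 0 for Osr2-SB minus control-SB and control+SB minus control-SB, and run from -4.45 to 2.02 for Osr2+SB minus control+SB and from -4.38 to 2.1 for Osr2+SB minus Osr2-SB.

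Both subunits shared this spread. In the large subunit 23 of 50 measured members were lower (46%) and 3 higher (6%), and in the small subunit 15 of 32 were lower (46.9%) and 2 higher (6.25%). Their medians were -0.84 and -0.56, a gap of -0.27 that is small beside quartiles of -1.87 and -0.11 in the large and -2.34 and 0.22 in the small subunit.

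The lowest members lay on both subunits. Rpl30 (chr15:34440505-34443276), which binds the ribosomal RNA near the subunit interface, had 1 read in Osr2+SB, 706 in Osr2-SB, 1007 in control+SB and 1120 in control-SB. Its relative TPM in Osr2+SB was 0.0144 times that in control+SB, with a wide counting interval of 0.000364 to 0.0804. Rps4x (chrX:102184941-102189391), an X-linked protein of the small-subunit body, rested on more reads, with 28 in Osr2+SB, 5368 in Osr2-SB, 8358 in control+SB and 9477 in control-SB. It was 2.74 TPM in Osr2+SB and 235 TPM in Osr2-SB, against 645 TPM in control+SB and 398 TPM in control-SB. Relative to the median gene it was 20.6-fold lower in Osr2+SB than in control+SB (exact 95% counting interval 14.2 to 31). The 3 other libraries thus held Rps4x at high levels and Osr2+SB alone was low.

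Rpl13a, a large-subunit protein also known for translational silencing of inflammatory mRNAs in myeloid cells, stood at 0.756 TPM in Osr2+SB and 22.1 in Osr2-SB, against 96.1 in control+SB and 61.4 in control-SB. It was 11.1-fold lower in Osr2+SB than in control+SB relative to the median gene (6.04 to 23.3). Rpl24, the gene hit in the Belly spot and tail mouse, had 0 reads in Osr2+SB, against 194 reads in control+SB. With 3 reads as the floor in Osr2+SB it was at least 4.46-fold lower relative to the median gene. Rpl39l and Rpl36al also had 0 reads in Osr2+SB and were at least 4.07-fold and at least 1.82-fold lower than in control+SB by the same floor.

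At the other end stood Rpsa (chr9:120127766-120132369), a small-subunit protein that is also known as the laminin receptor precursor. It had 4128 reads in Osr2+SB and 18527 in Osr2-SB, against 14759 in control+SB and 23919 in control-SB. Its TPM was 208 in Osr2+SB, 417 in Osr2-SB, 586 in control+SB and 517 in control-SB, so the deposited value was lowest in Osr2+SB. Relative to the median gene it was 4.05-fold higher in Osr2+SB than in control+SB (3.92 to 4.2), a difference of 2.02, while the deposited difference was -1.49. Rpsa thus had the least negative deposited difference of all measured members, in a comparison where most genes of the table lay lower.

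Rpl7 (chr1:16101295-16104433), a large-subunit protein, had 172 TPM in Osr2+SB and 292 in Osr2-SB, against 588 in control+SB and 459 in control-SB. Relative to the median gene it was 3.33-fold higher in Osr2+SB than in control+SB (3.2 to 3.47). Rps10, a protein at the mRNA entry side of the small subunit, had 8.02 TPM in Osr2+SB, 8.45 in Osr2-SB, 28.3 in control+SB and 24.5 in control-SB. It was 3.23-fold higher relative to the median gene (2.62 to 3.96), with 116 reads in Osr2+SB. The last of the 5 higher members were Rplp2 and Rpl21, at 2.87-fold (2.71 to 3.04) and 2.76-fold (2.53 to 3.01). All 5 were below control+SB on deposited TPM, at -2.01 to -1.49 on the log2 scale, and above it after read subtraction, at 1.39 to 1.95.

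Most other lower members lay within the same range. In the large subunit Rpl15, Rpl36a, Rpl10, Rpl39, Rpl36al, Rpl26 and Rpl17 lay at -2.95 to -2.4, and Rpl32, Rplp0, Rpl35a, Rpl28, Rpl29, Rpl23, Rpl8, Rpl22l1, Rpl4, Rpl27a, Rpl7l1 and Rpl35 at -1.99 to -1.11. In the small subunit Rps12, Rps13, Rps28, Rps26 and Rps21 lay at -2.83 to -2.55, and Rps27, Rps7, Rps27l, Rps25, Rps18 and Rps15a at -2.28 to -1.52. Of the 38 lower members, 32 had under 100 reads in Osr2+SB, so single values are imprecise there. Rps12, with 74 reads, was 7.25-fold lower in Osr2+SB than in control+SB relative to the median gene (5.77 to 9.24), at 5.83 TPM in Osr2+SB, 188 in Osr2-SB, 483 in control+SB and 309 in control-SB.

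The 39 members between the sizes counted ran from Rpl37 at -0.92 to Rps3 at 0.81. Rps19, the gene most often mutated in human Diamond-Blackfan anaemia, was among the upper ones at 0.73, with 29.2 TPM in Osr2+SB, 98.8 in Osr2-SB, 201 in control+SB and 149.9 in control-SB. Rps9 lay at 0.56 and Rps2 at 0.05. Rpl36, Rpl6 and Rpl7a lay nearest to 0 in the large subunit, at -0.01, 0.02 and -0.09. Abundant members were thus found at each position of the range, from Rplp0 at -1.89 to Rpsa at 2.02.

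Setting SB431542 against none in control cells gave small differences. No member was higher and none lower in control+SB than in control-SB, and 0% of all measured genes were higher and 0.577% lower. No entry had more reads in control+SB than in control-SB, which sets an upper limit on this difference. The highest of all measured genes was 0.39, and 0.84 on deposited TPM. That none was higher by the size used therefore says nothing about the members. The member median was 0.09, against 0.02 for all measured genes, and the members ran from -0.28 for Rpsa to 0.29 for Rpl39l. The median was 0.08 in the large and 0.09 in the small subunit. Rps26, Rpl24, Rpl30 and Rps25 followed Rpl39l at 0.28, 0.27, 0.25 and 0.24, and Rps10, Rps14, Rps4l and Rps15 followed Rpsa at -0.24, -0.17, -0.15 and -0.14. On deposited TPM all 82 measured members were above control-SB, by a median of 0.54, with 0 past the size used, as were 0% of all measured genes upward and 0.341% downward. After read subtraction the median was 0.41, against 0.11 for all measured genes, and 17 members were higher and 0 lower, beside 10% and 6.38% of all measured genes. Rpl39l then stood at 1.87 and Rpsa at -0.86, so subtraction widened the range but kept its ends.

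In Osr2 cells the same contrast was wide. Of the 82 members, 35 (42.7%) were lower and 4 (4.88%) higher in Osr2+SB than in Osr2-SB, beside 26.7% and 16.5% of all measured genes. The member median was -0.77, against -0.16 for all measured genes, and -0.72 if members listed at 0 are given 3 reads. By subunit, 20 of 50 large-subunit members (40%) and 15 of 32 small-subunit members (46.9%) were lower, with medians of -0.72 and -0.83. The lowest were Rpl30 at -4.38, Rps4x at -4.11, Rpl24 at -3.86, Rpl39l at -3.42 and Rpl36a at -3.0, and the highest were Rps10 at 2.1, Rpl7 at 1.48, Rpsa at 1.25, Rplp2 at 1.15 and Rpl21 at 0.78. On deposited TPM 79 members were lower and 0 higher, as were 64.1% and 0.118% of all measured genes. The 5 high members then all lay below Osr2-SB, from -0.07 for Rps10 to -1.44 for Rpl21. After read subtraction 38 members were lower and 4 higher, beside 26.8% and 18.9% of all measured genes.

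The reads of a treated column as a percent of the untreated column's ran in opposite orders over the members in the 2 kinds of cells. These are ratios of raw reads between libraries of unequal depth, and they mean something else if the untreated columns hold the treated reads. Reads in Osr2+SB were a median of 5.67% of those in Osr2-SB across 80 members with at least 100 untreated reads, from 0% for Rpl24 to 42.3% for Rps10. Reads in control+SB were a median of 79.4% of those in control-SB across 81 such members, from 61.7% for Rpsa to 92.7% for Rpl39l. Across all genes with at least 100 untreated reads the medians were 8.09% in Osr2 cells and 76% in control cells. As a description, the ranks of these 2 shares over 80 members had a Spearman's rho of -0.82. Over 8857 other protein-coding genes with at least 100 reads in control+SB and in Osr2-SB it was -0.44. The shares within a pair of cultures come from the same read tables, and the members' transcript length, exon number and gene span had rhos of 0.2, 0.05 and 0.08 with their share in Osr2 cells.

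**Figure D3:**
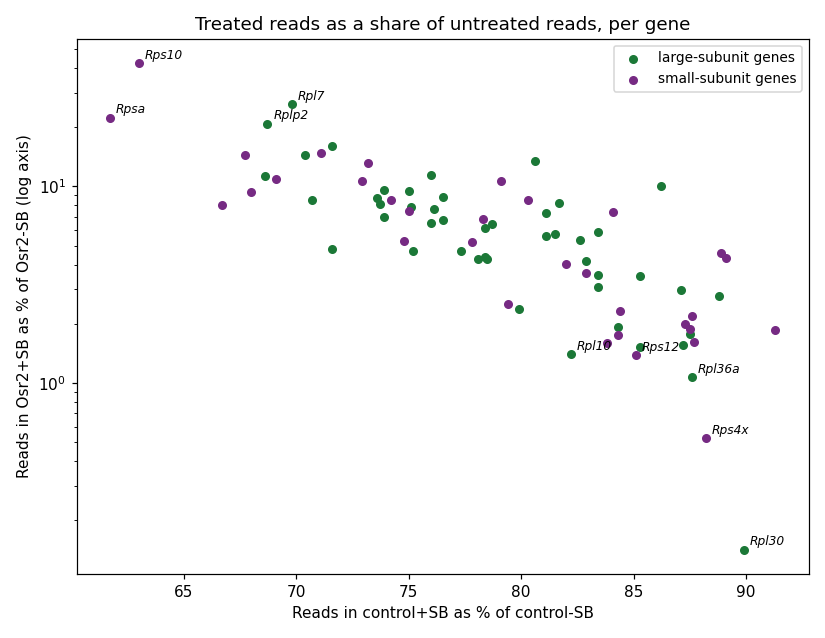
Reads of each ribosomal protein gene in Osr2+SB as a percent of Osr2-SB (vertical, log axis) against reads in control+SB as a percent of control-SB (horizontal), for members with at least 100 untreated reads in both cells and at least 1 read in Osr2+SB. Points fall from Rps10 and Rpsa at the upper left (42.3% and 22.3% in Osr2 cells) to Rpl30 at the lower right (0.142% in Osr2 cells and 89.9% in control cells).

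Members of one structural or functional unit did not share a direction. Of the stalk proteins, Rplp0 had 38 TPM in Osr2+SB, 710.1 in Osr2-SB, 1606 in control+SB and 1095 in control-SB, and was lower in Osr2+SB than in control+SB by a relative difference of -1.89. Its partner Rplp1 lay at -0.14 in this comparison. Rplp2, which pairs with Rplp1 on the stalk, had 105 TPM in Osr2+SB, 225 in Osr2-SB, 417 in control+SB and 331 in control-SB and lay at 1.52. The 3 stalk genes thus spanned most of the range of the family, while their differences in Osr2-SB against control-SB were 0.17, 0.36 and 0.24.

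Rps6, the small-subunit protein phosphorylated by the S6 kinases downstream of mTOR, lay at 0.42 in Osr2+SB against control+SB, with 43.8 TPM in Osr2+SB, 179 in Osr2-SB, 375 in control+SB and 295 in control-SB. Rpl5 and Rpl11, which with 5S ribosomal RNA bind Mdm2 and thereby link ribosome assembly to p53, lay at -0.51 and 0.15. Rpl3, a protein next to the peptidyl transferase centre, lay at -0.53. These 4 members therefore stayed within the size used for counting. Rpl10, an X-linked protein that joins the large subunit late in its maturation, was at 4.05 TPM in Osr2+SB and 129 in Osr2-SB, against 325 in control+SB and 216 in control-SB. It was lower by a relative difference of -2.78, while Rpl10a, a different large-subunit protein despite its name, lay at 0.53. Rpl38, whose loss in mice alters the translation of Hox mRNAs, lay at 0.45 in Osr2-SB against control-SB and at -0.73 in Osr2+SB against control+SB.

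The 4 X-linked members, Rpl10, Rpl36a, Rpl39 and Rps4x, were all among the lower ones in Osr2+SB against control+SB, at -4.31 to -2.68 with a median of -2.85. The other 78 measured members had a median of -0.58. Over measured protein-coding genes with a position, 416 X-linked genes had a median of -0.84 and 11754 others one of -0.11. The median of these 4 members thus lay below that of the X-linked protein-coding genes as a whole. In Osr2-SB against control-SB the 4 members ran from -0.92 to 0.3, with a median of 0.05. Rpl36a had 1.16 TPM in Osr2+SB, 48.1 in Osr2-SB, 109 in control+SB and 67.7 in control-SB, and Rpl39 had 0.446, 7.21, 40.2 and 24.7 TPM in the same libraries. Rpl39 rested on 4 reads in Osr2+SB. No test of the X chromosome was made.

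Several members have a paralog, and the ratio within such a pair does not depend on the scaling of a library. Rpl22l1, a paralog of Rpl22, had 13.3% of the TPM of Rpl22 in Osr2+SB (95% counting interval 8.62 to 19.8) and 18.3% in Osr2-SB (16.6 to 20.2), against 42.6% in control+SB (39.7 to 45.7) and 37.7% in control-SB (35.3 to 40.1). Rpl7l1 had 2.29% of the TPM of Rpl7 in Osr2+SB (1.82 to 2.84) and 7.32% in Osr2-SB (6.86 to 7.8), against 17.5% in control+SB (16.8 to 18.2) and 15% in control-SB (14.4 to 15.5). As deposited, the paralog of both pairs held a smaller share in the Osr2 libraries than in the control libraries, with counting intervals that did not overlap. Read subtraction, added for these ratios after seeing the data, changed this for the untreated libraries. Rpl7l1 then stood at 9.11% of Rpl7 in Osr2-SB (8.51 to 9.74) and 9.07% in control-SB (8.34 to 9.84), which no longer differed beyond counting error. Rpl22l1 stood at 18.8% of Rpl22 in Osr2-SB (16.9 to 20.8) and 23.7% in control-SB (20.3 to 27.5), with intervals that overlap.

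Rps27l, a paralog of Rps27 and a known p53 target, had 170.4% of the TPM of Rps27 in Osr2+SB (93.4 to 316) and 74.7% in Osr2-SB (67.5 to 82.6), against 153% in control+SB (143 to 164) and 151% in control-SB (141 to 161). Osr2-SB alone lay below parity, and the Osr2+SB interval overlapped those of both control libraries. Rps4l, annotated as a transcribed processed pseudogene, had 1137% of the TPM of Rps4x in Osr2+SB (761 to 1758), 41.3% in Osr2-SB (38.8 to 43.9), 45.4% in control+SB (43.3 to 47.6) and 59.1% in control-SB (56.8 to 61.5). Its own TPM was 31.2 in Osr2+SB, 96.9 in Osr2-SB, 293 in control+SB and 236 in control-SB, and the high ratio in Osr2+SB stood beside 2.74 TPM of Rps4x. After read subtraction Rps27l stood at 72.8% of Rps27 in Osr2-SB (65.7 to 80.6) and 132% in control-SB (109 to 159), and Rps4l at 35.6% of Rps4x in Osr2-SB (33.3 to 38) and 162% in control-SB (148 to 176). Rpl39l, which is best known from testis, had 77.4% of the TPM of Rpl39 in Osr2-SB (56.8 to 104), 66.7% in control+SB (55.7 to 79.5) and 63.9% in control-SB (53.8 to 75.6), intervals that overlap. It had 0 reads in Osr2+SB beside 4 of Rpl39. The tissue-restricted forms stayed near 0: Rpl3l had 0.195 TPM in Osr2+SB, 0.13 in Osr2-SB, 0.23 in control+SB and 0.125 in control-SB, and Rpl10l had 0, 0, 0.123 and 0.201 TPM in the same libraries. Rpl36al had 2.85% of the TPM of Rpl36a in Osr2-SB (1.85 to 4.19), against 6.75% in control+SB (5.31 to 8.47) and 7.11% in control-SB (5.72 to 8.75).

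**Figure D4:**
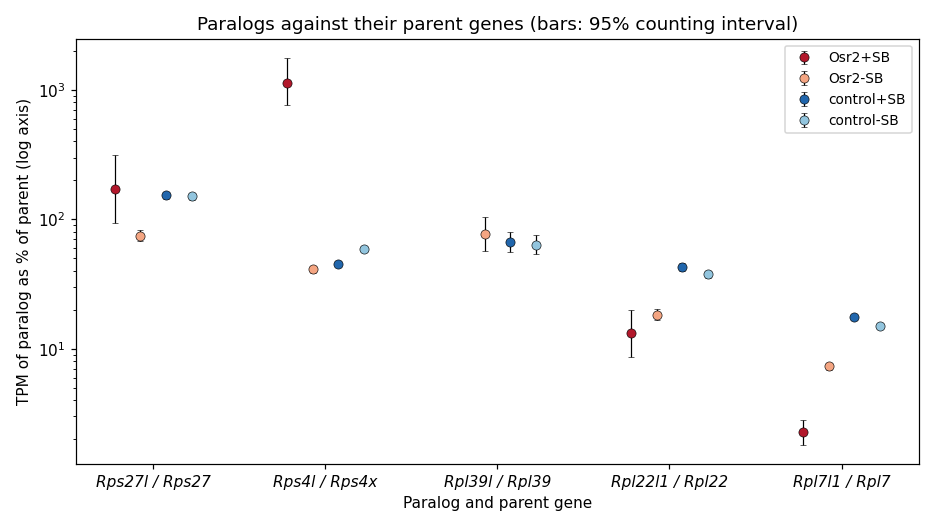
TPM of 5 paralogs as a percent of the TPM of their parent gene (log axis) in each library, with exact 95% counting intervals as bars. Values are as deposited: Rpl22l1 and Rpl7l1 are lower in both Osr2 libraries, Rps27l in Osr2-SB only, and Rps4l stands at 1137% in Osr2+SB. After read subtraction Rpl7l1 is at 9.11% in Osr2-SB and 9.07% in control-SB. Rpl39l has no point in Osr2+SB, where it had 0 reads.

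Ribosomal protein genes have many processed pseudogenes with near-identical sequence, so reads may be split between copies, and values of single members carry that uncertainty. Beside Rps4l, 4 entries with pseudogene names (-ps) of the family had their own row. Rpl14-ps1 had 1.47 TPM in Osr2+SB, 21.9 in Osr2-SB, 53 in control+SB and 35.2 in control-SB. Rps19-ps3 had 3.38, 4.85, 9.16 and 5.31 TPM in the same libraries. The other -ps entries were under 0.5 TPM throughout.

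The rest of the translation machinery gives the context. Of the ribosome genes outside the naming pattern, Rack1, a scaffold on the small subunit, lay at -2.49 in Osr2+SB against control+SB. Rps3a1 and Fau, which encode small-subunit proteins, lay at -2.11 and -0.45. Rps27a, the member that also encodes ubiquitin, lay at -0.36. In Osr2-SB against control-SB Rack1, Rps3a1 and Fau lay at -0.18, 0.17 and 0.48, and Rps27a at -0.04.

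Of 17 translation factors and other mRNAs known for a 5′ terminal oligopyrimidine tract, 1 was lower (5.88%, against 11.4% of all measured genes) and 0 higher (against 16.6%) in Osr2-SB against control-SB, with a median of -0.07. That gene was Hnrnpa1, an RNA-binding protein, at -1.55. In Osr2+SB against control+SB 9 were lower (52.9%, against 27.9% of all measured genes) and 0 higher (against 19.9%), with a median of -1.22. The elongation factor gene Eef1a1 had 54.5 TPM in Osr2+SB and 1779.8 in Osr2-SB, against 4023 in control+SB and 2609 in control-SB, a relative difference of -2.69 with SB431542. Tpt1, which encodes the translationally controlled tumour protein, lay at 0.93 without and 0.76 with SB431542.

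Ribosome biogenesis genes, which encode the nucleolar factors that build the particle, took another course. Of 42, 16 (38.1%) were lower and 0 higher in Osr2-SB against control-SB, beside 11.4% and 16.6% of all measured genes, with a median of -0.85, while the ribosomal protein genes had a median of -0.01. Polr1b, a subunit of RNA polymerase I, was the lowest at -1.8, and Fbl, the nucleolar methyltransferase fibrillarin, lay at -1.12. In Osr2+SB against control+SB the median was -0.25, and 10 (23.8%) were lower and 6 (14.3%) higher, beside 27.9% and 19.9% of all measured genes. The highest was Eif6, a factor that keeps the large subunit from joining early, at 2.58, and the lowest was Nop10, a small nucleolar ribonucleoprotein subunit with 0 reads in Osr2+SB, whose difference of -4.96 depends on the pseudocount. In Osr2+SB against Osr2-SB the list's median was 0.61, with 17 (40.5%) higher and 2 (4.76%) lower beside 16.5% and 26.7% of all measured genes, where the ribosomal protein genes had a median of -0.77. On deposited TPM the biogenesis medians were -1.59, -3.46 and -1.29 in these 3 comparisons, and after read subtraction they were -0.91, -0.3 and 0.71. The order of the 2 lists was kept under both: their ribosomal protein counterparts were -0.79, -4.12 and -2.78 on deposited TPM and 0.26, -0.82 and -0.81 after subtraction.

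**Figure D5:**
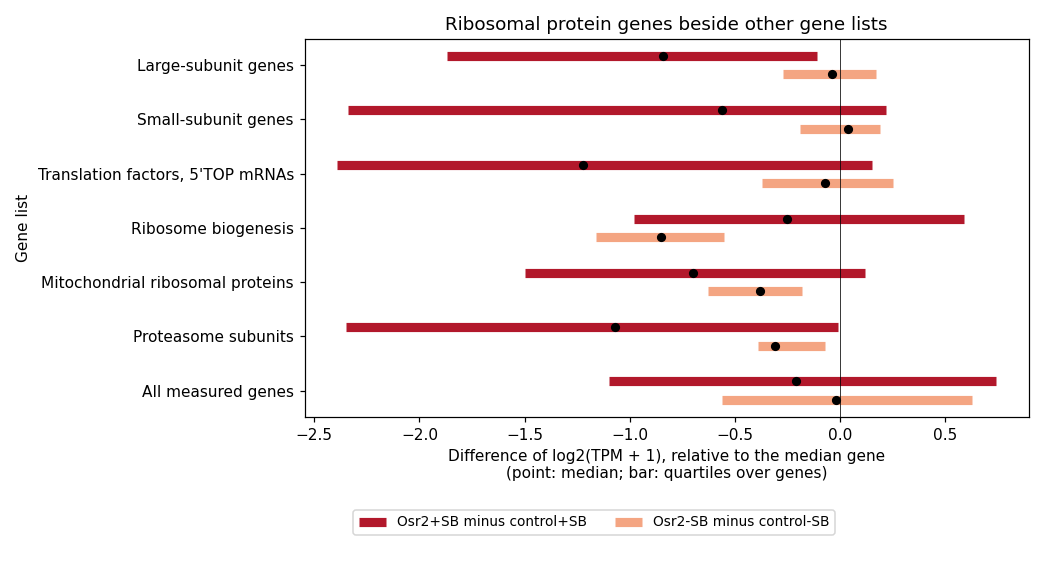
Median (point) and quartiles (bar) of the difference of log2(TPM + 1), relative to the median gene, in 7 gene sets, for Osr2+SB minus control+SB (dark red) and Osr2-SB minus control-SB (orange). Both subunits are centred near 0 without SB431542, where the biogenesis genes have a median of -0.85, and lie below the median of all measured genes (-0.21) with it.

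Among 14 translational control genes, Larp1, the binder of the oligopyrimidine tract, lay at -0.37 in Osr2-SB against control-SB and at 1.41 in Osr2+SB against control+SB, and Eif4e, the cap-binding protein, at -1.14 and -2.74. In this list 2 genes (14.3%) were lower and 0 higher without SB431542, near the 11.4% lower of all measured genes. With it 8 (57.1%) were lower and 3 (21.4%) higher, beside 27.9% and 19.9%. Mitochondrial ribosomal protein genes, 77 measured, had medians of -0.38 without and -0.7 with SB431542. Without it 3 (3.9%) were lower and 0 higher, and with it 34 (44.2%) were lower and 7 (9.09%) higher, beside the same shares of all measured genes. Of 36 measured proteasome genes, 0 were lower and 0 higher without SB431542, and 18 (50%) lower and 1 (2.78%) higher with it, with medians of -0.31 and -1.07. With SB431542 the share of lower genes was thus of like size in the cytosolic (46.3%) and mitochondrial ribosomal protein genes and the proteasome genes.

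The genes whose course over the 4 libraries was most like the members' median were sought among 7787 other genes of mean TPM of at least 5. The measure was the sum of the absolute distances of their 3 differences to control-SB from those of the median member, which were -0.67 in Osr2+SB, -0.01 in Osr2-SB and 0.09 in control+SB. The nearest was Ogdh, a subunit of the 2-oxoglutarate dehydrogenase complex, at a distance of 0.01. Wdr48, Arhgef7, Ptpn14, Pde4d, Spp1, Slc25a37, Ndufb3, Usp30 and Btbd7 followed at 0.03 to 0.11. The median distance of a member from the same centre was 1.3, and 1 member was nearer to it than the last of these genes. That cutoff was set by the nearest of 7787 genes, so the count cannot tell how many members followed the family's median. No median distance of other genes is given beside the 1.3.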

How the data were processed

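Each library's file holds the same table, with 1 column of TPM for each of the 4 libraries. The deposited TPM values were made by the authors, per the labels' design text, from NovaSeq 6000 reads: these were aligned with STAR 2.7.3a (default settings) to GRCm38.p6, followed by counting reads per gene with featureCounts 2.0.0 on Ensembl release 75. Libraries came from poly(A)-selected total RNA with a kit that keeps strand, per the labels' protocols. Whether counting used strand and how reads with several matches were handled are not given in the sources used here. Changes of library make-up move TPM of every gene, so the median gene serves as the zero of each difference.

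Of 27304 rows, 26 named as dates and the rows of repeated symbols were left out, which kept 26809. A second table, with 4 per-sample columns that match no sample, was not used. Differences are of log2(TPM + 1) after division by the median ratio to control-SB over genes averaging 5 TPM or more. A gene needs at least 1 TPM in 1 library, and a difference of at least 1 is counted. Whole reads were recovered from the TPM steps in 18786 of 18787 entries (99.995%, within 0.0001 of a whole number). The recovered lengths of all 84 members equal the summed exon length in GENCODE M21, after 5 were raised by a whole factor. On simulated data of 478 entries the recovery was right up to a common factor in 100%, and exactly in 95.8%. No count test was made, since each comparison sets 1 library against 1 and leaves no spread within a group. Exact 95% intervals on reads and a floor of 3 reads for 0 cover counting error only.

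Members and gene lists were chosen with earlier results of these data known. Named are the 5 highest and 5 lowest members of each comparison, the 5 most abundant of each subunit, stalk and other members with a known role, and each paralog with its parent; others were picked after their values were seen. A few genes that enter the counts are not reported here by name. Alternatives were TPM as deposited, read subtraction (treated reads taken from the untreated column, TPM rebuilt), pseudocounts of 0.1 and 5, no filter or one of 5 TPM, and leaving out the paralogs. Read subtraction for the paralog ratios was added after seeing the data. Gene positions and starts are those of RefSeq on GRCm38.p6. Python 3.11.15, numpy 2.4.6, pandas 2.3.3, scipy 1.17.1 and matplotlib 3.10.9 were used.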

Additional observations from a re-analysis of the deposited data

Results flagged for a closer look

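SB431542 against none went opposite ways in Osr2 and control cells for the ribosomal protein genes as a group and for most members. With 1 library per group this difference between the cells was not tested. Values are differences of log2(TPM + 1) relative to the median gene. The member median was -0.77 in Osr2 cells and 0.09 in control cells. Of 82 measured members, 68 had opposite signs, 53 of them lower in Osr2 cells and higher in control cells and 15 the reverse. Opposite signs were thus found in 82.9% of the members and in 61.4% of all measured genes. Lower in Osr2 cells and higher in control cells were 64.6% of the members and 35.6% of all measured genes. The reverse held for 18.3% of the members, below the 25.8% of all measured genes. No member's difference in control cells was past the size of 1, and they ran from -0.28 to 0.29. No entry had more reads in control+SB than in control-SB, which limits these differences upward. After read subtraction they ran from -0.86 to 1.87, with 17 members higher and 0 lower, beside 10% and 6.38% of all measured genes.

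Among the members named by the size of their difference, 7 were lower with SB431542 in Osr2 cells and slightly higher in control cells. These were Rpl30 (-4.38 in Osr2 and 0.25 in control cells), Rps4x (-4.11 and 0.23), Rpl24 (-3.86 and 0.27) and Rpl39l (-3.42 and 0.29). The others were Rpl36a (-3.0 and 0.22), Rps26 (-2.3 and 0.28) and Rps25 (-1.08 and 0.24). Rpl24 and Rpl39l had 0 reads in Osr2+SB, so the size of their difference depends on the pseudocount. After read subtraction the differences of these 7 members in control cells were larger, from 1.24 for Rpl36a to 1.87 for Rpl39l.

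The reverse was seen in Rps10 (2.1 in Osr2 and -0.24 in control cells), Rpl7 (1.48 and -0.1), Rpsa (1.25 and -0.28), Rplp2 (1.15 and -0.13), Rpl21 (0.78 and -0.07) and Rps4l (0.61 and -0.15). On deposited TPM all 6 of these were lower in Osr2+SB than in Osr2-SB. The members' median treated reads as a percent of untreated reads, 5.67% in Osr2 and 79.4% in control cells, and the 15.1% of mitochondrial reads in Osr2+SB stand beside these values, and their part in them was not tested.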

How the results depend on the processing

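Under pseudocounts of 0.1 and 5, no filter, a filter of 5 TPM and without the paralogs, the 16 summary results of the comparisons moved by no more than the median counting error of a member or, for counts, by no more than 1.5 times. Within that, leaving out the paralogs took the median of Osr2+SB against control+SB to -0.58 from -0.76, and no filter took it to -0.66. Leaving out the paralogs also took the median of Osr2-SB against control-SB to 0.03 from -0.01. The large minus small subunit gap of Osr2+SB against control+SB went to -0.1 from -0.27 without them. A pseudocount of 5 took that gap in Osr2+SB against Osr2-SB to 0.17 from 0.11. On TPM as deposited the member medians were -0.79 (Osr2-SB against control-SB), -4.12 (Osr2+SB against control+SB), 0.54 (control+SB against control-SB) and -2.78 (Osr2+SB against Osr2-SB), in place of -0.01, -0.76, 0.09 and -0.77. The members lower were then 21, 82 and 79 in Osr2-SB against control-SB, Osr2+SB against control+SB and Osr2+SB against Osr2-SB, and 0 were higher in each. These were 25.6%, 100% and 96.3% of the measured members. Of all measured genes, 30.6%, 88.1% and 64.1% were lower and 7.78%, 0.348% and 0.118% higher. Read subtraction moved the median of Osr2-SB against control-SB to 0.26, with a large minus small subunit gap of -0.18 in place of -0.08. In that comparison 9 members were higher and 1 lower, beside 17.4% and 12% of all measured genes. It moved the median of control+SB against control-SB to 0.41, with 17 members higher (20.7%), beside 10% of all measured genes. The share of TPM was 4.53%, 6.48%, 8.36% and 8.06% in Osr2+SB, Osr2-SB, control+SB and control-SB without mitochondrially encoded genes in the total, 2.78%, 5.84%, 7.99% and 7.42% without paralogs, and 1.94%, 2.61%, 3.69% and 3.55% as a share of reads. These shares kept the order of the libraries. For the scaling and the subtraction the alternative's own construction moves the values. No paired analysis was possible because each group has 1 library. The 39 members under 100 reads in Osr2+SB limit the precision there, and no difference has a replicate check.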
